A study of Mus musculus with 9 samples.

Results

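The 10 genes described here are the standard markers and drivers of the epithelial-mesenchymal transition (EMT): Cdh1, Epcam, Cdh2, Vim, Snai1, Snai2, Zeb1, Zeb2, Twist1 and Twist2. They were taken by gene symbol from a count table of 24421 genes, and all 10 were found in it. RNA was sequenced from D3 cells, a mouse embryonic stem (ES) cell line kept without feeder cells on gelatin, in serum and leukemia inhibitory factor. The 9 libraries form 3 groups of 3, namely D3 cells overexpressing LAMP2A and given DM-αKG at 4 mM for 72 h (LAMP2A+DM-αKG), D3 cells overexpressing LAMP2A without it (LAMP2A), and D3 cells that stably carry the pCDH control vector (VT). LAMP2A, a splice form of LAMP2 in the lysosome's membrane, is the receptor of chaperone-mediated autophagy. DM-αKG, dimethyl α-ketoglutarate, is a form of α-ketoglutarate that crosses cell membranes. DM-αKG was given only to LAMP2A cells, so no group shows what it does to vector cells.

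EMT is the passage of cells that hold together in sheets into loose, motile cells. E-cadherin (Cdh1) and EpCAM join epithelial cells, and N-cadherin (Cdh2) and the intermediate filament protein vimentin (Vim) are typical of mesenchymal cells. The zinc finger proteins of the Snail and ZEB families and the basic helix-loop-helix proteins of the Twist family are the transcription factors that drive the switch, and Snail and ZEB proteins repress Cdh1 by binding E-boxes in its promoter. Mouse ES cells express Cdh1 and grow as tight epithelial colonies, and gastrulating embryos use the same factors when mesoderm forms.

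E-box letters are shown here for 4 members because the factors among the 10 genes act through such motifs. Of the 10 members, 6 had an entry in the RefSeq promoter table (build GRCm38.p6): Epcam, Vim, Snai1, Zeb2, Twist1 and Twist2. Each sequence is the 250 bases before the first RefSeq start, written 5′ to 3′ on the gene's strand, with every CANNTG in capitals. Epcam stands for the epithelial genes, Snai1 and Twist1 for the factors, and Vim for the mesenchymal genes.
Epcam, chr17:87635729-87635978, + strand: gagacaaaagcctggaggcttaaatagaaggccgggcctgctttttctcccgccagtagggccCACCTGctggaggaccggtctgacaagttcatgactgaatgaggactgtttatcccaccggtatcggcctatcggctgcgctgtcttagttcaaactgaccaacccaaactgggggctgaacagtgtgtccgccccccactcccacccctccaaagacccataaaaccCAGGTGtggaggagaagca
Snai1, chr2:167537945-167538194, + strand: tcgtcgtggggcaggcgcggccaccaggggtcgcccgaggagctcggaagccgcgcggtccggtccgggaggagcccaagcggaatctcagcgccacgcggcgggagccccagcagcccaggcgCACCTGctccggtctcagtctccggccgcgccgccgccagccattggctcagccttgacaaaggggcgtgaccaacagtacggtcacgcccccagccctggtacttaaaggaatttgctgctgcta
Twist1, chr12:33957421-33957670, + strand: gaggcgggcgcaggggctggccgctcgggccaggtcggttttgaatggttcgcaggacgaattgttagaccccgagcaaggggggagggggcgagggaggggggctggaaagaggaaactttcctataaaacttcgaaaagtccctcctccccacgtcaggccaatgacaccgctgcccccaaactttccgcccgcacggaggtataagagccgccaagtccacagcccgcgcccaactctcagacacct
Vim, chr2:13574061-13574310, + strand: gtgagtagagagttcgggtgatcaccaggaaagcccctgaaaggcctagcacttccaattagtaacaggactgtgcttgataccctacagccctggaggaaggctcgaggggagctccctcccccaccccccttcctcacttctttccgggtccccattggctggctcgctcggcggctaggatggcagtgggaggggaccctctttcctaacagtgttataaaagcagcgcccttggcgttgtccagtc

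The motif CANNTG reads the same on both strands, and CAGGTG and CACCTG, the forms bound by Snail and ZEB proteins, are each other's reverse complement and are special cases of it. Epcam held 2 matches, CACCTG at -187 and CAGGTG at -19 from the start. Snai1 held 1, CACCTG at -126. No CANNTG was found in this window of Vim, Twist1 or Twist2, nor before any of 4 starts of Zeb2. The Vim window lies inside the gene as annotated in GENCODE vM21, which starts at chr2:13573927. Sequence before that start was not searched. Of 27025 promoters of the same length, 1 for each gene, 66.0% held a CANNTG and 17.1% a CAGGTG or CACCTG. A match is a run of letters and not a measured binding site.

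Libraries held 23636074 to 32809875 counted reads. Levels are given as CPM, reads scaled to an equal library total with TMM factors, and a gene was called at a Benjamini-Hochberg adjusted p under 0.05 in edgeR's quasi-likelihood test over 14513 genes with enough counts. Whether the replicates are separate cultures is not stated in the labels, and the p-values therefore speak only of the spread among these libraries, which may be technical. These are bulk samples, in which more cells of a type and more RNA per cell cannot be told apart. Lamp2, the overexpressed gene, had 95.4 to 99.3 CPM in LAMP2A+DM-αKG, 403 to 407 CPM in LAMP2A and 56.9 to 60.0 CPM in VT. It was 4.16-fold lower in LAMP2A+DM-αKG than in LAMP2A, so that DM-αKG and a lower Lamp2 level cannot be told apart in any comparison of those groups.

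With LAMP2A, Cdh2, Vim and the factor genes Snai1, Snai2, Zeb1, Zeb2 and Twist1 rose, most of them by a large factor, and Cdh1 rose with them. All 10 members passed the filter on low counts, but Twist2 passed only through the LAMP2A group, where it was high, so it is described by its reads and left out of the counts here. Of the other 9 members, 8 were called higher in LAMP2A than in VT and 0 lower, where 43.0% of all tested genes were called higher and 42.1% lower, 85.1% in all. With DM-αKG, all 9 were called lower than in LAMP2A alone, where 42.1% of tested genes were called lower, 41.1% higher and 83.2% in all. The 6 that changed at least 2-fold were Cdh2, Vim, Snai1, Snai2, Zeb2 and Twist1 in both comparisons, where 19.8% of tested genes were called at least 2-fold higher in LAMP2A than in VT and 17.6% at least 2-fold lower in LAMP2A+DM-αKG than in LAMP2A. The comparisons share the LAMP2A libraries, so they are not independent of each other.

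**Figure D1:**
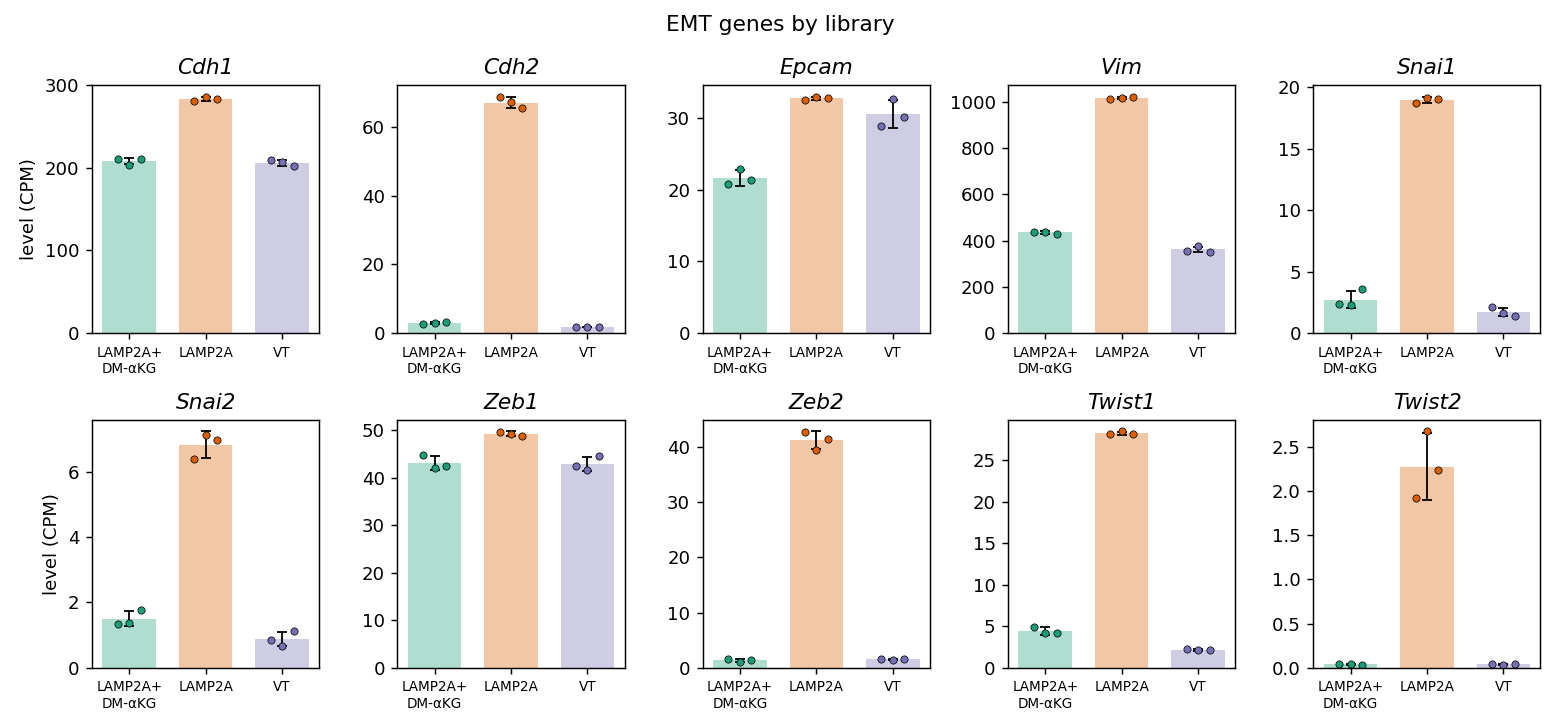
Level of each of the 10 EMT genes in CPM on a linear axis from 0, with the groups LAMP2A+DM-αKG, LAMP2A and VT from left to right; bars are means, whiskers SD and points the 3 libraries of a group. LAMP2A bars stand far above the others for Cdh2, Zeb2, Twist1 and Snai1, while the groups lie within 1.51-fold of each other for Cdh1, Zeb1 and Epcam.

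The epithelial adhesion genes did not fall with LAMP2A. Cdh1, which encodes E-cadherin, the adhesion protein of adherens junctions (mm10 chr8:106603351-106670246, + strand), had 210.3, 203 and 211 CPM in LAMP2A+DM-αKG, 280.5, 286 and 283 CPM in LAMP2A, and 209, 207 and 202 CPM in VT. Every LAMP2A library lay above all 6 others, and the other groups overlapped. Cdh1 was 1.37-fold higher in LAMP2A than in VT (log2 fold change 0.46, SE 0.029, edgeR adjusted p = 1.6e-16) and 1.36-fold lower in LAMP2A+DM-αKG than in LAMP2A (log2 fold change -0.44, adjusted p = 4.5e-16). Between LAMP2A+DM-αKG and VT the log2 fold change was 0.01 with an SE of 0.029 (adjusted p = 0.704).

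Epcam encodes an epithelial surface glycoprotein that marks ES cells as well as epithelia (mm10 chr17:87635979-87651129, + strand), and its promoter is the one printed above with 2 E-boxes. It had 20.7, 22.8 and 21.3 CPM in LAMP2A+DM-αKG, 32.5, 32.9 and 32.7 CPM in LAMP2A, and 28.8, 32.6 and 30.1 CPM in VT. The LAMP2A and VT libraries overlapped, and all 3 LAMP2A+DM-αKG libraries lay below both. The log2 fold change between LAMP2A and VT was 0.10 (SE 0.049, edgeR adjusted p = 0.0618), which was not called, and the authors' deposited table gives 0.10 with an adjusted p of 0.141. It was called without VT replicate 2, the highest of its group (log2 fold change 0.15, adjusted p = 0.00682), and under 3 other settings that kept all libraries (adjusted p = 0.00480 to 0.0379). In LAMP2A+DM-αKG, Epcam was 1.51-fold lower than in LAMP2A (log2 fold change -0.60, SE 0.052, adjusted p = 1.2e-12) and 1.41-fold lower than in VT (log2 fold change -0.50, SE 0.054, adjusted p = 9.4e-10).

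The mesenchymal cadherin changed far more than the epithelial one. Cdh2, which encodes N-cadherin (chromosome 18), had 2.73, 2.93 and 3.26 CPM in LAMP2A+DM-αKG, 68.7, 67.1 and 65.4 CPM in LAMP2A, and 1.77, 1.77 and 1.71 CPM in VT. The 3 groups did not overlap, with LAMP2A far above and LAMP2A+DM-αKG slightly above VT. Cdh2 was 38.2-fold higher in LAMP2A than in VT (log2 fold change 5.26, SE 0.073, edgeR adjusted p = 4.0e-36) and 22.4-fold lower in LAMP2A+DM-αKG than in LAMP2A (log2 fold change -4.48, SE 0.065). It stayed 1.71-fold higher in LAMP2A+DM-αKG than in VT (log2 fold change 0.77, SE 0.14, adjusted p = 1.8e-05).

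The ratio of the 2 cadherin counts within a library does not depend on how libraries are scaled. For 100 reads of Cdh1 there were 1.30, 1.44 and 1.55 reads of Cdh2 in LAMP2A+DM-αKG, 24.5, 23.5 and 23.1 in LAMP2A, and 0.847, 0.857 and 0.846 in VT. The means were 1.43 ± 0.124 in LAMP2A+DM-αKG, 23.7 ± 0.737 in LAMP2A and 0.850 ± 0.00576 in VT (SD, n = 3 each), with no overlap. These reads are not corrected for transcript length, and even in LAMP2A the larger number of cadherin reads came from Cdh1.

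**Figure D2:**
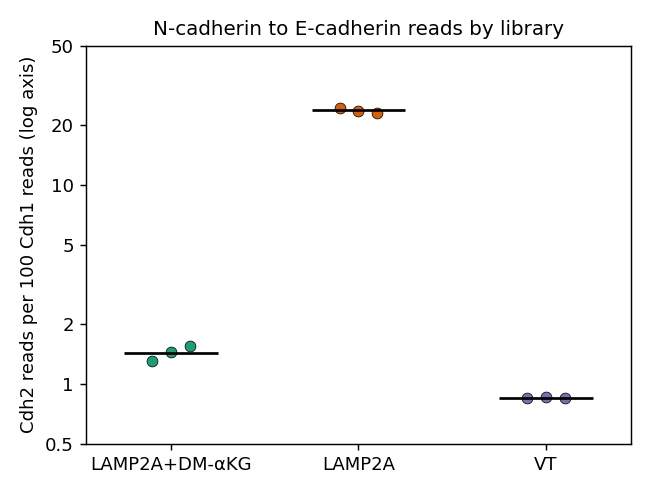
Reads of Cdh2 for every 100 reads of Cdh1 in each library, on a log axis, with the groups LAMP2A+DM-αKG, LAMP2A and VT from left to right and a line at each mean. The LAMP2A libraries lie at 23.1 to 24.5, LAMP2A+DM-αKG at 1.30 to 1.55 and VT at 0.846 to 0.857.

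Vim, the gene of the mesenchymal intermediate filament protein vimentin (mm10 chr2:13573927-13582826, + strand), was the most abundant member. It had 437, 439 and 428 CPM in LAMP2A+DM-αKG, 1011, 1015 and 1022 CPM in LAMP2A, and 357, 375 and 352 CPM in VT. No groups overlapped, and VT cells already held a high level. Vim was 2.81-fold higher in LAMP2A than in VT (log2 fold change 1.49, SE 0.030, edgeR adjusted p = 2.3e-31), 2.34-fold lower in LAMP2A+DM-αKG than in LAMP2A (log2 fold change -1.22, SE 0.030) and 1.20-fold higher in LAMP2A+DM-αKG than in VT (log2 fold change 0.27, SE 0.030, adjusted p = 2.1e-09).

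Both Snail family repressors rose with LAMP2A. Snai1, the Snail gene, needed for gastrulation in mice (mm10 chr2:167538195-167542814, + strand), had 2.36, 2.27 and 3.56 CPM in LAMP2A+DM-αKG, 18.7, 19.2 and 19.1 CPM in LAMP2A, and 2.10, 1.63 and 1.41 CPM in VT. LAMP2A stood well above both other groups, and LAMP2A+DM-αKG lay just above VT without overlap. The gene was 11.1-fold higher in LAMP2A than in VT (log2 fold change 3.48, SE 0.11, edgeR adjusted p = 2.5e-25) and 6.82-fold lower in LAMP2A+DM-αKG than in LAMP2A (log2 fold change -2.77, SE 0.098). Against VT, Snai1 in LAMP2A+DM-αKG was 1.63-fold higher (log2 fold change 0.71, SE 0.17, adjusted p = 0.000726), and 1 library carried much of that: without LAMP2A+DM-αKG replicate 3 the log2 fold change was 0.44 (adjusted p = 0.0401).

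Snai2, the Slug gene, whose product acts in neural crest and mesenchyme (mm10 chr16:14705852-14709385, + strand), had 1.35, 1.39 and 1.76 CPM in LAMP2A+DM-αKG, 6.38, 7.15 and 6.98 CPM in LAMP2A, and 0.864, 0.666 and 1.12 CPM in VT. Its order of groups was that of Snai1, again without overlap, at a lower level. The VT values rest on 18 to 30 reads a library. Snai2 was 7.71-fold higher in LAMP2A than in VT (log2 fold change 2.95, SE 0.15, edgeR adjusted p = 2.3e-19), 4.49-fold lower in LAMP2A+DM-αKG than in LAMP2A (log2 fold change -2.17, SE 0.13) and 1.72-fold higher in LAMP2A+DM-αKG than in VT (log2 fold change 0.78, SE 0.22, adjusted p = 0.00244).

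The 2 ZEB genes behaved unlike each other. Zeb1 (chromosome 18), a zinc finger homeodomain repressor of epithelial genes, had 44.8, 42.1 and 42.4 CPM in LAMP2A+DM-αKG, 49.7, 49.3 and 48.8 CPM in LAMP2A, and 42.4, 41.7 and 44.5 CPM in VT. LAMP2A libraries were the highest, by a small margin, and the other groups overlapped. The fold was 1.15 between LAMP2A and VT (log2 fold change 0.20, SE 0.041, edgeR adjusted p = 3.2e-05), and 1.14-fold lower values were found in LAMP2A+DM-αKG than in LAMP2A (log2 fold change -0.19, SE 0.041). For LAMP2A+DM-αKG against VT the log2 fold change was 0.01 with an SE of 0.042 (adjusted p = 0.904).

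Zeb2, its paralog, which also acts in neural and neural crest development (mm10 chr2:44983632-45117395, - strand), had 1.56, 1.08 and 1.36 CPM in LAMP2A+DM-αKG, 42.6, 39.5 and 41.5 CPM in LAMP2A, and 1.60, 1.44 and 1.60 CPM in VT. It was low in both other groups, which overlapped, and every LAMP2A library was far above them. Zeb2 was 26.6-fold higher in LAMP2A than in VT (log2 fold change 4.73, SE 0.085, edgeR adjusted p = 7.1e-33) and 30.9-fold lower in LAMP2A+DM-αKG than in LAMP2A (log2 fold change -4.95, SE 0.087). Between LAMP2A+DM-αKG and VT the log2 fold change was -0.22 with an SE of 0.19 (adjusted p = 0.326). The antisense gene Zeb2os shares 653 bases, or 3.27%, of the Zeb2 exons. It had 0 reads in every LAMP2A+DM-αKG library, 17, 15 and 16 in LAMP2A and 0 in every VT library, against 1402, 1272 and 1111 reads of Zeb2 in LAMP2A. The strand setting of the counting is not given in the sources used here.

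Both Twist genes were low outside LAMP2A. Twist1, a basic helix-loop-helix factor of mesoderm and cranial mesenchyme (mm10 chr12:33957671-33959829, + strand), had 4.92, 4.20 and 4.12 CPM in LAMP2A+DM-αKG, 28.1, 28.4 and 28.1 CPM in LAMP2A, and 2.26, 2.11 and 2.08 CPM in VT. The groups did not overlap, and LAMP2A+DM-αKG held the middle place. Twist1 was 13.1-fold higher in LAMP2A than in VT (log2 fold change 3.71, SE 0.082, edgeR adjusted p = 4.0e-30), 6.42-fold lower in LAMP2A+DM-αKG than in LAMP2A (log2 fold change -2.68, SE 0.070) and 2.04-fold higher in LAMP2A+DM-αKG than in VT (log2 fold change 1.03, SE 0.12, adjusted p = 1.2e-08).

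Twist2, the Dermo1 gene of dermal and other mesenchyme (mm10 chr1:91801461-91848028, + strand), was barely counted outside LAMP2A. It had 1 read in each LAMP2A+DM-αKG library, 63, 86 and 60 reads in LAMP2A, which are 1.92, 2.67 and 2.24 CPM, and 1 read in each VT library. LAMP2A over VT, with 209 against 3 reads in all, gave a ratio of 59.3 with an exact 95% counting interval of 20.03 to 290.1. LAMP2A over LAMP2A+DM-αKG gave 60.5 with an interval of 20.4 to 296. No test is given for Twist2, since it entered the fit only through LAMP2A, and no fold is given between LAMP2A+DM-αKG and VT, where 3 reads stood against 3. These intervals cover counting error only. An antisense gene, Gm29100, covers 46.5% of the Twist2 exons and is not among the 24421 genes with counts, so that strand is less certain for Twist2 than for the other members.

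LAMP2A+DM-αKG and VT cells differed in 6 of the 9 members other than Twist2, where 58.7% of all tested genes were called. Cdh2, Vim, Snai1, Snai2 and Twist1, 5 members, were called higher in LAMP2A+DM-αKG, where 29.3% of all tested genes were called higher. Epcam alone was called lower, where 29.3% of genes were called lower. Cdh1, Zeb1 and Zeb2 were not called. In the same comparison 11 of 13 parietal endoderm markers were called higher and 0 lower, and 2 of 10 ES cell markers were higher and 7 lower. Their part in the differences of the EMT genes was not tested. Of the 6 differences only that of Twist1 reached 2-fold (log2 fold changes of 0.95 to 1.08 when each library was left out in turn), where 3.93% of tested genes were called at least 2-fold higher. The VT libraries serve here and in the comparison of LAMP2A with VT, and the LAMP2A+DM-αKG libraries in both of their comparisons.

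**Figure D3:**
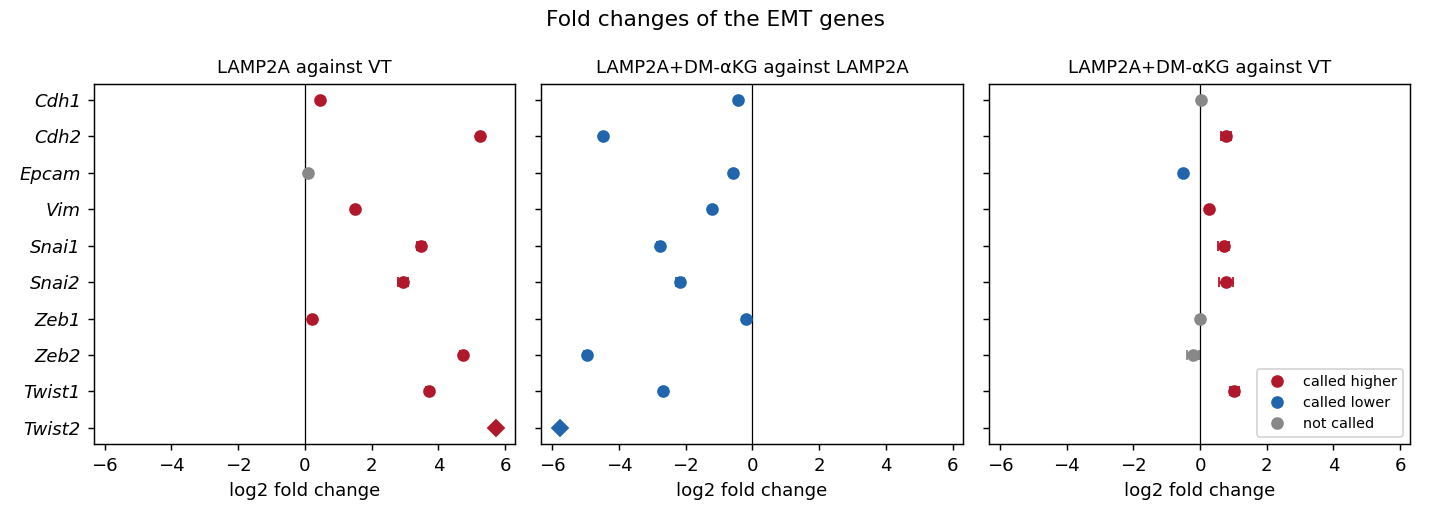
Log2 fold change of each EMT gene in 3 panels, 1 for each comparison, with bars of 1 approximate SE on either side (red, called higher; blue, called lower; grey, not called); a diamond without a bar marks Twist2, which is not drawn between LAMP2A+DM-αKG and VT. Apart from Twist2, values reach 5.26 for Cdh2 between LAMP2A and VT, lie below 0 for all members between LAMP2A+DM-αKG and LAMP2A, and lie between -0.50 and 1.03 between LAMP2A+DM-αKG and VT.

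Levels of different genes were set side by side as CPM per kilobase of exon, using all exons of a gene in the GENCODE vM21 annotation, since the authors' annotation is not given in the sources used here. Vim led in every group, with means of 91.7 in LAMP2A+DM-αKG, 214 in LAMP2A and 76.2 CPM per kilobase in VT. Cdh1 came next, with 45.5 in LAMP2A+DM-αKG, 61.9 in LAMP2A and 45.1 in VT.

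Below this pair the order of levels depended on the group. In LAMP2A+DM-αKG the mean levels ran from Epcam at 9.85 through Zeb1 at 4.20, Twist1 at 2.71, Snai1 at 1.68, Snai2 at 0.741, Cdh2 at 0.369 and Zeb2 at 0.0668 to Twist2 at 0.0120 CPM per kilobase. In LAMP2A the order was Twist1 at 17.3, Epcam at 14.9, Snai1 at 11.7, Cdh2 at 8.31, Zeb1 at 4.80, Snai2 at 3.38, Zeb2 at 2.07 and Twist2 at 0.717. In VT it was Epcam at 13.9, Zeb1 at 4.17, Twist1 at 1.32, Snai1 at 1.06, Snai2 at 0.436, Cdh2 at 0.217, Zeb2 at 0.0777 and Twist2 at 0.0121. Thus Twist1 and Snai1 stood above Zeb1 in LAMP2A and below it in the other groups. Neighbours in each order did not overlap between libraries, apart from Twist1 and Snai1 in VT. Gene lengths that include rarely used exons lower the value of long genes such as Zeb2.

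Other genes of adhesion and of EMT were described from 10 lists of 183 genes chosen by function. Each list is given by its calls and the median log2 fold change of its tested genes. Medians over all tested genes were 0.0081 between LAMP2A and VT, -0.0012 between LAMP2A+DM-αKG and LAMP2A and 0.0030 between LAMP2A+DM-αKG and VT. Of all tested genes, 43.0% were called higher and 42.1% lower between LAMP2A and VT. These shares were 41.1% and 42.1% between LAMP2A+DM-αKG and LAMP2A, and 29.3% each between LAMP2A+DM-αKG and VT. List counts near these shares do not set a list apart from other genes. Some list genes, Acta2 and Ctnna2 among them, had almost no reads outside LAMP2A and, like Twist2, passed the filter only through that group. Such genes could only be called higher in LAMP2A than in the other groups. They are included in the counts and medians of their lists, and their number was not determined. Means are CPM ± SD over 3 libraries.

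**Figure D4:**
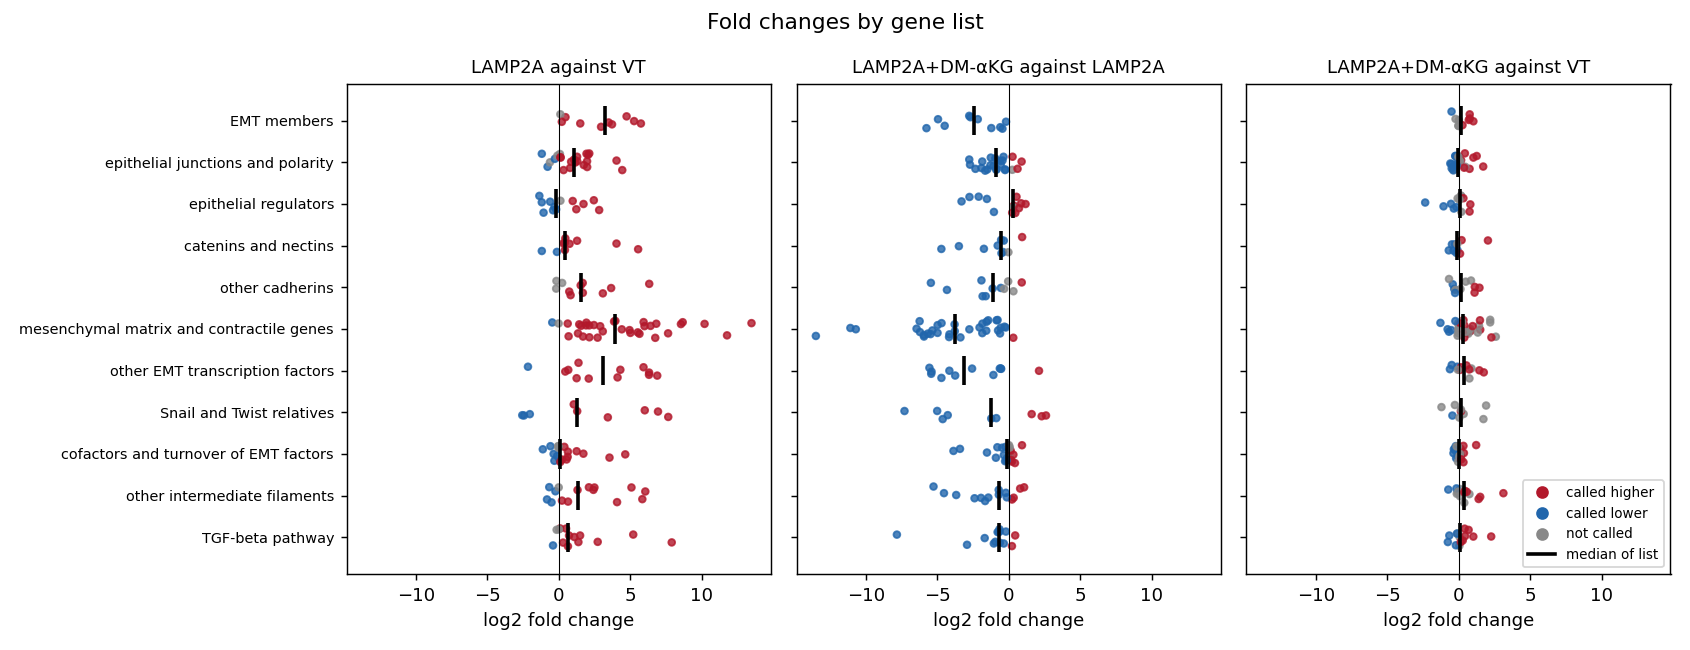
Log2 fold change of each tested gene of the EMT set and of 10 related lists, in 3 panels, 1 for each comparison. Points are red where called higher, blue where called lower and grey where not called, and a black bar marks the median. Between LAMP2A and VT the medians run from -0.20 for epithelial regulators to 3.90 for mesenchymal matrix and contractile genes, and between LAMP2A+DM-αKG and LAMP2A from -3.79 for mesenchymal matrix and contractile genes to 0.31 for epithelial regulators.

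Genes of epithelial junctions and polarity moved mostly up with LAMP2A. Of 23 tested, 17 were called higher and 3 lower in LAMP2A than in VT, with a median log2 fold change of 1.05. Dsc2, a desmosomal cadherin, averaged 10.5 ± 0.753 CPM in LAMP2A+DM-αKG, 69.4 ± 0.322 CPM in LAMP2A and 3.22 ± 0.512 CPM in VT. Tjp1, the tight junction scaffold ZO-1, averaged 260.4 ± 3.49 CPM in LAMP2A+DM-αKG, 479.6 ± 4.86 CPM in LAMP2A and 231 ± 12.9 CPM in VT. The polarity gene Crb3 fell instead, with 3.38 ± 0.127 CPM in LAMP2A+DM-αKG, 2.21 ± 0.134 CPM in LAMP2A and 5.06 ± 0.507 CPM in VT. Between LAMP2A+DM-αKG and LAMP2A 3 of the 23 were higher and 19 lower (median -0.88), and between LAMP2A+DM-αKG and VT 7 were higher and 10 lower (median -0.024, or -0.0085 with library totals as the scaling). Jup, plakoglobin, was among those called lower in LAMP2A+DM-αKG than in VT, by 1.40-fold.

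Regulators of the epithelial state were divided. Of 13 tested of 17, 5 were higher and 7 lower in LAMP2A than in VT (median -0.20), 7 were higher and 5 lower in LAMP2A+DM-αKG than in LAMP2A (median 0.31), and 3 were higher and 5 lower in LAMP2A+DM-αKG than in VT (median 0.06). Spint1, an inhibitor of membrane serine proteases, averaged 108 ± 1.64 CPM in LAMP2A+DM-αKG, 59.7 ± 1.12 CPM in LAMP2A and 137 ± 2.82 CPM in VT. The surface antigen gene Cd24a went the other way, with 18.7 ± 1.14 CPM in LAMP2A+DM-αKG, 126 ± 1.41 CPM in LAMP2A and 17.97 ± 0.865 CPM in VT. St14, the protease matriptase, was highest in LAMP2A+DM-αKG, at 81.4 ± 2.58 CPM, against 36.1 ± 0.739 CPM in LAMP2A and 48.1 ± 2.64 CPM in VT. Spint2, a relative of Spint1, was 1.24-fold lower in LAMP2A than in VT, and Rab25, a gene of epithelial vesicle traffic, was 2.58-fold lower.

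Catenins tie cadherins to actin, and nectins are a further class of adhesion proteins. Of both together, 8 of 10 tested were higher and 2 lower in LAMP2A than in VT (median 0.43), 1 was higher and 8 lower in LAMP2A+DM-αKG than in LAMP2A (median -0.53), and 3 were higher and 6 lower in LAMP2A+DM-αKG than in VT (median -0.13). Ctnnb1, β-catenin, averaged 1134 ± 7.96 CPM in LAMP2A+DM-αKG, 1493 ± 7.49 CPM in LAMP2A and 1208 ± 8.48 CPM in VT. Ctnna1, α-catenin, had 824 ± 1.15 CPM in LAMP2A+DM-αKG, 839 ± 5.66 CPM in LAMP2A and 926 ± 11.4 CPM in VT and was lower in LAMP2A. Nectin1, listed as Pvrl1, had 78.3 ± 1.36 CPM in LAMP2A+DM-αKG, 41.1 ± 1.28 CPM in LAMP2A and 94.3 ± 4.96 CPM in VT. Ctnnd1, the p120 catenin that stabilises cadherins, rose 1.33-fold in LAMP2A against VT. Ctnna2, the neural α-catenin, had 0.232 ± 0.0917 CPM in LAMP2A+DM-αKG, 2.59 ± 0.301 CPM in LAMP2A and 0.0495 ± 0.0568 CPM in VT.

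Among other cadherins, 8 of 11 tested of 20 were higher and 0 lower in LAMP2A than in VT (median 1.52), 1 was higher and 7 lower in LAMP2A+DM-αKG than in LAMP2A (median -1.13), and 3 were higher and 3 lower in LAMP2A+DM-αKG than in VT (median 0.13). Cdh6, a cadherin of developing kidney and brain, averaged 0.378 ± 0.140 CPM in LAMP2A+DM-αKG, 16.6 ± 0.471 CPM in LAMP2A and 0.203 ± 0.0807 CPM in VT. P-cadherin (Cdh3), typical of epithelia, rose as well, with 4.55 ± 0.251 CPM in LAMP2A+DM-αKG, 16.3 ± 1.09 CPM in LAMP2A and 5.68 ± 0.281 CPM in VT. Cdh24 was 3.17-fold and Cdh4, R-cadherin, 1.65-fold higher in LAMP2A than in VT.

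Mesenchymal matrix and contractile genes moved with Cdh2 and Vim. Of 34 tested of 37, 32 were higher and 1 lower in LAMP2A than in VT (median 3.90), 1 was higher and 33 lower in LAMP2A+DM-αKG than in LAMP2A (median -3.79), and 12 were higher and 5 lower in LAMP2A+DM-αKG than in VT (median 0.31). These counts and medians include Acta2, Col1a2, Col3a1, Col6a1, Dcn and Postn, which passed the filter only through LAMP2A. Their calls could only be higher in LAMP2A than in the other groups. Tpm1, a tropomyosin of stress fibres, averaged 96.6 ± 0.871 CPM in LAMP2A+DM-αKG, 3045 ± 39.0 CPM in LAMP2A and 95.3 ± 4.83 CPM in VT. Fn1, the matrix protein fibronectin, had 1708 ± 49.1 CPM in LAMP2A+DM-αKG, 2944 ± 10.4 CPM in LAMP2A and 1170 ± 117 CPM in VT, and was called higher than in VT in both other groups. Sparc, a matrix glycoprotein gene, rose 4.37-fold in LAMP2A against VT. Acta2, smooth muscle actin, had 0.0379 ± 0.00443 CPM in LAMP2A+DM-αKG, 486 ± 6.14 CPM in LAMP2A and 0.0370 ± 0.0370 CPM in VT, the highest fitted fold change of the list between LAMP2A and VT. Thy1, a surface protein of fibroblasts, was the gene called lower, with 2.56 ± 0.275 CPM in LAMP2A+DM-αKG, 3.16 ± 0.203 CPM in LAMP2A and 4.38 ± 0.301 CPM in VT.

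Other transcription factors linked to EMT included 11 of 12 tested that were higher and 1 that was lower in LAMP2A than in VT (median 3.09). Hmga2, a chromatin protein that activates Snai1 and Twist1 in epithelial cells, averaged 16.1 ± 0.511 CPM in LAMP2A+DM-αKG, 422 ± 8.39 CPM in LAMP2A and 24.6 ± 0.793 CPM in VT. Sox9 had 0.442 ± 0.273 CPM in LAMP2A+DM-αKG, 18.5 ± 0.404 CPM in LAMP2A and 0.154 ± 0.0387 CPM in VT. Tcf3, the E2A gene whose product pairs with Twist proteins, rose 1.57-fold in LAMP2A against VT, and its relative Tcf4, E2-2, rose 1.36-fold. Klf8 fell, with 64.5 ± 0.630 CPM in LAMP2A+DM-αKG, 14.9 ± 0.285 CPM in LAMP2A and 67.0 ± 2.18 CPM in VT. Between LAMP2A+DM-αKG and LAMP2A 1 was higher and 11 were lower (median -3.16), and between LAMP2A+DM-αKG and VT 6 were higher and 3 lower (median 0.35).

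Close relatives of the Snail and Twist genes did not move as a block. Of 9 tested of 13, 6 were higher and 3 lower in LAMP2A than in VT (median 1.28), 3 were higher and 6 lower in LAMP2A+DM-αKG than in LAMP2A (median -1.23), and 1 was higher and 1 lower in LAMP2A+DM-αKG than in VT (median 0.16, or 0.049 with the gene that had no read in a group set at its bound). Hand1, a helix-loop-helix factor of lateral mesoderm, averaged 0.359 ± 0.238 CPM in LAMP2A+DM-αKG, 59.8 ± 2.47 CPM in LAMP2A and 0.294 ± 0.0752 CPM in VT. Snai3, the third Snail gene, fell where Snai1 and Snai2 rose, with 1.67 ± 0.139 CPM in LAMP2A+DM-αKG, 0.340 ± 0.0853 CPM in LAMP2A and 2.02 ± 0.109 CPM in VT. Tcf15, a factor of paraxial mesoderm that is also found in ES cells, fell 4.10-fold in LAMP2A against VT, and Msc, musculin, fell 5.44-fold.

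Cofactors of the EMT repressors and genes that set their turnover had small changes on the whole: of 20, 11 were higher and 5 lower in LAMP2A than in VT (median 0.09), 6 were higher and 11 lower in LAMP2A+DM-αKG than in LAMP2A (median -0.14), and 8 were higher and 6 lower in LAMP2A+DM-αKG than in VT (median -0.0023, which was -0.0036 with upper quartile factors and 0.013 with library totals). Kdm1a, the demethylase that Snail proteins recruit, averaged 303 ± 1.42 CPM in LAMP2A+DM-αKG, 331 ± 1.33 CPM in LAMP2A and 314 ± 6.85 CPM in VT. Ctbp2, a corepressor that ZEB proteins bind, fell 2.18-fold in LAMP2A against VT, and Sin3a, another corepressor, fell 1.25-fold. Ajuba, a LIM protein that binds Snail, rose 1.45-fold in LAMP2A against VT. Id2, which holds helix-loop-helix proteins off DNA, had 16.0 ± 0.356 CPM in LAMP2A+DM-αKG, 171 ± 0.351 CPM in LAMP2A and 6.83 ± 0.756 CPM in VT.

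Among intermediate filament genes other than Vim, 10 of 15 were higher and 4 lower in LAMP2A than in VT (median 1.30), 4 were higher and 11 lower in LAMP2A+DM-αKG than in LAMP2A (median -0.71), and 6 were higher and 2 lower in LAMP2A+DM-αKG than in VT (median 0.39). The epithelial keratins rose along with vimentin. Krt8 averaged 48.3 ± 2.93 CPM in LAMP2A+DM-αKG, 619 ± 6.17 CPM in LAMP2A and 37.0 ± 2.12 CPM in VT, and its partner Krt18 had 12.0 ± 0.557 CPM in LAMP2A+DM-αKG, 462 ± 1.51 CPM in LAMP2A and 8.09 ± 0.309 CPM in VT. Lmnb2, a nuclear lamin, was 1.78-fold lower in LAMP2A than in VT, and the log2 fold change of Lmnb1 was -0.02 (SE 0.028), which was not called. Krt7 had 0.615 ± 0.383 CPM in LAMP2A+DM-αKG, 13.7 ± 0.892 CPM in LAMP2A and 0.202 ± 0.0702 CPM in VT.

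In the TGF-β pathway, the best known inducer of EMT, 11 of 14 were higher and 1 lower in LAMP2A than in VT (median 0.67), 2 were higher and 12 lower in LAMP2A+DM-αKG than in LAMP2A (median -0.68), and 7 were higher and 4 lower in LAMP2A+DM-αKG than in VT (median 0.10). The ligand gene Tgfb2 averaged 0.831 ± 0.0828 CPM in LAMP2A+DM-αKG, 189 ± 3.53 CPM in LAMP2A and 0.795 ± 0.287 CPM in VT. Smad4, the shared signal carrier, had 101 ± 2.66 CPM in LAMP2A+DM-αKG, 159 ± 2.72 CPM in LAMP2A and 97.5 ± 1.52 CPM in VT. Ski and Skil, which encode repressors of Smad proteins, rose 1.41-fold and 2.11-fold in LAMP2A against VT. Smad7, an inhibitor of the pathway, was the gene that fell, with 117 ± 2.16 CPM in LAMP2A+DM-αKG, 101 ± 1.68 CPM in LAMP2A and 134 ± 2.50 CPM in VT.

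Genes whose pattern was most like a member were sought by computing, for 10394 genes whose mean reached 5 CPM, the root mean square difference of centred log2 CPM over the 9 libraries. For Cdh1 this was Ctdsp2, at 0.013, with 166 CPM in LAMP2A+DM-αKG, 227 CPM in LAMP2A and 164 CPM in VT. Epcam was closest to Tcf19, at 0.047, Vim to Phf13, at 0.038, and Zeb1 to Smarcc1, at 0.026. Zeb2 was closest to Tshz1, at 0.056, a zinc finger homeobox gene with 1.73 CPM in LAMP2A+DM-αKG, 52.2 CPM in LAMP2A and 2.12 CPM in VT. The nearest genes of Twist1 (Shisa4, 0.082), Cdh2 (Slc40a1, 0.13) and Snai1 (Rftn1, 0.18) lay further off. The next 2 in order were Tmem18 and Stim2 for Cdh1, Trap1a and Fam64a for Epcam, Amot and Ehd2 for Cdh2, and Wbp1l and Tcta for Vim. They were Rhob and Frem2 for Snai1, Scaf11 and Fam168a for Zeb1, Samd4 and Cubn for Zeb2, and Sh3bgrl and Sepn1 for Twist1. Snai2 and Twist2 had too few reads to be matched. With a prior count of 5 in place of 1, 19 of the 24 nearest genes, 3 for each of the other members, stayed the same.

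Markers of ES cells moved against most EMT genes, and those of parietal endoderm and smooth muscle mostly moved with them. All 10 ES cell markers, Pou5f1 and Nanog among them, were lower in LAMP2A than in VT and higher in LAMP2A+DM-αKG than in LAMP2A, with summed levels of 6768 to 6819.7 CPM in LAMP2A+DM-αKG, 1884 to 1889 CPM in LAMP2A and 7836 to 8303 CPM in VT. Of 13 parietal endoderm markers, 12 were higher and 1 lower in LAMP2A than in VT, and the sums were 2135 to 2220 CPM in LAMP2A+DM-αKG, 5967 to 6055 CPM in LAMP2A and 1567 to 1693 CPM in VT. Of these 13, 1 was higher and 12 were lower in LAMP2A+DM-αKG than in LAMP2A. All 9 smooth muscle markers were higher in LAMP2A than in VT. Their sums were 60.9 to 64.2 CPM in LAMP2A+DM-αKG, 2091 to 2133 CPM in LAMP2A and 61.7 to 67.1 CPM in VT. Among the 9, Acta2, Actg2, Myocd and Myh11 averaged at most 0.290 CPM outside LAMP2A. They passed the filter only through LAMP2A, so their calls could only be higher there. Of all tested genes, 43.0% were called higher and 42.1% lower in LAMP2A than in VT. In those lists, 1 of the 13 parietal endoderm and 3 of the 9 smooth muscle markers also stand in the lists above.

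Of 12 fibroblast or feeder cell markers, 9 were higher, 1 was lower and 2 were not tested between LAMP2A and VT. Their sums were 44.6 to 48.5 CPM in LAMP2A+DM-αKG, 289 to 297 CPM in LAMP2A and 36.7 to 38.8 CPM in VT. Among the 9, the collagen gene Col1a1 averaged 0.990 ± 0.418 CPM in LAMP2A+DM-αKG, 59.2 ± 1.02 CPM in LAMP2A and 0.968 ± 0.160 CPM in VT. Col1a2, Col6a1, Dcn, Postn and Twist2, also among the 9, averaged at most 0.237 CPM outside LAMP2A. Col3a1 averaged 0.626 ± 0.989 CPM in LAMP2A+DM-αKG and 0.0865 CPM in VT. Like those genes, it passed the filter only through LAMP2A. The calls of Col3a1 and of those genes could therefore only be higher there. The 2 not tested were Lum, with 0.0140 CPM in LAMP2A+DM-αKG, 0.216 CPM in LAMP2A and no read in VT, and Fap, with 0.0140 CPM in LAMP2A+DM-αKG and no read in LAMP2A or VT. In that list, 11 of 12 genes also belong to the mesenchymal list above and the remaining one is Twist2, so it is not separate evidence. Of 8 blood cell markers, 0 were higher, 3 were lower and 5 were not tested between LAMP2A and VT. They summed to 15.9 to 16.9 CPM in LAMP2A+DM-αKG, 9.26 to 10.5 CPM in LAMP2A and 28.3 to 31.5 CPM in VT, and the globin genes Hba-a1 and Hbb-bs had no read in any library. The part of these cell types in the levels of the EMT genes was not tested.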

How the data were processed

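RNA of 9 D3 ES cell libraries was prepared with the TruSeq stranded mRNA kit of Illumina, per the labels' protocols. The authors deposited whole-number read counts for each gene symbol. Per the submitters' processing notes, STAR 2.7.1, HTSeq 0.11.2 and DESeq2 were used with build mm10. The annotation is not given in the sources used here, nor is the strandedness of the counting. Tables of 2 comparisons were deposited too. Per the file headers, each has a mean signal (normalized count), a log2 fold change and its standard error, a score (the test statistic), and p-values before and after adjustment. The deposited log2 fold changes and adjusted p-values served as an alternative.

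Groups and replicate numbers were taken from sample titles. Of 24421 genes, filterByExpr of edgeR 4.0.16 (R 4.3.3) kept 14513. All 9 libraries entered a single group-means model (TMM factors of 0.989 to 1.01, robust glmQLFit, glmQLFTest) with 6 residual degrees of freedom. Libraries of a group varied little (common biological coefficient of variation 2.74%), and small changes passed. SE was obtained by dividing the size of the log2 fold change by the root of its F statistic. It is too small at low counts and is left out for Twist2. Other members with few reads in a group are affected too. Between LAMP2A and VT it was 0.073 for Cdh2, 0.085 for Zeb2 and 0.15 for Snai2. The authors' deposited standard errors were 0.134, 0.146 and 0.219 for these genes. Replicates differed by more than sampling noise, at a chi-square of 1.19 to 5.66 for each degree of freedom.

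Alternatives were upper quartile, RLE (DESeq2 size factors) and library-total scaling, DESeq2 1.42.0, the authors' tables, other filters on low counts, fits of 2 groups, a replicate block, a minimum change of 2-fold and leaving out each library. The EMT genes and lists were chosen with earlier results of these data known. From each list the text names the 3 genes of highest mean CPM and the called genes with the highest and the lowest log2 fold change between LAMP2A and VT, apart from 1 gene that is not reported here. For members with a mean of 5 CPM or more, the 3 nearest genes were found. Of the list genes, 5 were matched through older symbols. Promoters came from RefSeq (GRCm38.p6), and coordinates and exon lengths from GENCODE vM21.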

Additional observations from a re-analysis of the deposited data

How the results depend on the processing

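Of 523 alternative values of member fold changes, 514 kept their direction and their side of the threshold. Epcam between LAMP2A and VT became called in 4: at a log2 fold change of 0.11 with RLE factors (edgeR adjusted p = 0.0379), 0.11 with library totals (0.0353), 0.16 when genes averaging under 5 CPM were dropped (0.00480) and 0.15 without VT replicate 2 (0.00682). Over all its alternatives the adjusted p ran from 0.00480 to 0.290. Between LAMP2A+DM-αKG and VT, where neither gene was called, Zeb1 turned to -0.00065 without VT replicate 1, -0.012 without VT replicate 2 and -0.019 without LAMP2A+DM-αKG replicate 1, and Twist2 to 0.018 without VT replicate 1 and 0.062 without LAMP2A+DM-αKG replicate 3. Without each library in turn these values ran from -0.019 to 0.035 for Zeb1 and from -0.091 to 0.062 for Twist2. The cause was not tested. With a minimum change of 2-fold, 4271 genes were called between LAMP2A and VT, 3723 between LAMP2A+DM-αKG and LAMP2A and 951 between LAMP2A+DM-αKG and VT, against 12355, 12081 and 8517 without it, and between LAMP2A+DM-αKG and VT 1 member was higher and 0 were lower. With Twist2 counted, leaving out each library in turn gave 9 to 10 members higher between LAMP2A and VT, 10 lower between LAMP2A+DM-αKG and LAMP2A, and 5 higher and 1 lower between LAMP2A+DM-αKG and VT. With the replicate block, 12341, 12065 and 8462 genes and, with Twist2, 9, 10, 5 and 1 members were called. Libraries that share only a number did not deviate together (correlations of -0.027 to 0.012, against -0.020 to 0.034 between other numbers). With 3 libraries a group, this cannot show whether equal numbers mark paired samples. The filter at a mean of 5 CPM left out Snai2 and Twist2. Depth limits Twist2, with 3 reads in each of LAMP2A+DM-αKG and VT, and Snai2.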
